A study of Mus musculus with 12 samples.

Results

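The prefrontal cortex of mice killed 7 d after the last of 14 daily injections was compared between cocaine and saline. Every gene was a member whose row in the 7 d table had the status OK, a gene name and a mean FPKM of at least 1, where FPKM counts sequenced fragments relative to transcript length and to all fragments mapped. This gave 13311 genes, of 14087 in the 3 tables of the series together, beside 13264 genes at 2 h and 13495 at 24 h. The mice were C57BL/6 males (C57BL/6 J in the study's methods) aged 10 weeks with no transgene, given intraperitoneal cocaine at 20 mg/kg per day or saline only, and all groups had the same daily handling and injections. Each of the 6 groups (saline or cocaine, killed at 2 h, 24 h or 7 d) had 2 libraries, each from the pooled cortex of 5 mice. The dissected block held frontal association, prelimbic and orbital cortex, so levels are averages over many cell types, in which fewer cells of a type and less RNA per cell cannot be told apart.

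The tables hold 1 FPKM per group, here called a pool, with no value per library. No spread between replicates, n or test can therefore be given for any value below, and a difference is described only by its size. For weight, each 7 d difference was set against the saline pools of 2 h and 24 h, which received the same injections and came from separate tables that the authors normalised separately. Those mice were killed sooner after the last injection than the 7 d mice. Time since injection therefore cannot be told apart from other differences between the saline pools. Saline at 24 h over saline at 2 h had a median log2 ratio of 0.02 over 12839 genes, and 16.2% of the genes differed by 1.2-fold or more in either direction. In the 7 d table the column of control mice was taken as the first value, as the rule of the comparison and the headings of the study's own tables have it, since the column names do not follow the sample descriptions.

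Cocaine blocks the reuptake of dopamine and other monoamines. In the prefrontal cortex, an area for planning and for control over drug seeking, dopamine and glutamate act through cyclic AMP, calcium and MAP kinases on the transcription factors CREB and SRF. These switch on immediate-early genes within minutes of activity, and the products include further transcription factors (Fos, Junb, Egr1, Nr4a1), synaptic proteins (Arc) and phosphatases that turn the kinases off again (Dusp1, Dusp6). Withdrawal for days is known for slower adaptations of synapses, chromatin and energy metabolism.

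Most genes hardly differed at 7 d. The median log2 ratio of cocaine over saline was -0.01 over 13183 genes with both values above 0, and 52.9% of them differed by less than 1.1-fold. Cocaine was at least 1.2-fold higher for 1115 genes (8.46%) and at least 1.2-fold lower for 1552 genes (11.8%). At 1.5-fold the numbers were 153 (1.16%) and 224 (1.7%). Where all 3 saline values were present (12853 genes), 493 of the higher genes (3.84%) lay above every saline pool and 778 of the lower genes (6.05%) below every one. Differences of 1.2-fold or more were more frequent at low expression, at 32.4% in the lowest of 4 equal groups by mean FPKM against 16.9% in the highest. A further 128 genes were listed at 0 in 1 of the 2 pools, and 102 of these were small RNA genes or had transcripts or loci under 300 bases. At the minimum of the rule, the median absolute log2 ratio was 0.24 for the 210 members with a mean FPKM under 1.1 and 0.22 for the 220 names just outside, from 0.9 to under 1.

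Immediate-early genes were on the higher side in cocaine. Of 41 members, 15 were higher by 1.2-fold, with 8.46% of all genes as background, and 2 were lower, with a median log2 ratio of 0.12 over the list. The difference was smaller than at the earlier times. From the tables of those times, the list's median log2 ratio was 0.99 at 2 h and 0.26 at 24 h. These medians were over 43 genes each, so not over the same set as at 7 d. Nr4a3, Egr2, Atf3 and Maff were no members. Of the 41 genes 9 were higher and above all 3 saline pools (background 3.84%). They were 9 of the 15 higher genes, while 45.9% of all higher genes lay above the saline pools. With a mean FPKM of at least 5 the median was 0.05. Set against the geometric mean of the saline pools of 2 h and 24 h, the list's median log2 value was -0.18 in saline and -0.03 in cocaine at 7 d. For 26 of the 41 genes the 7 d cocaine value lay within the range of the 3 saline pools. The summed FPKM of the list was 573, 615 and 528 in saline at 2 h, 24 h and 7 d, and 574 in cocaine at 7 d.

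Arc, which is carried to synapses and takes part in the removal of AMPA receptors, had the largest ratio of the list. Its pooled FPKM was 6.47 in saline and 21.6 in cocaine at 7 d, a 3.33-fold higher value. The other saline pools had 5.59 at 2 h and 23.2 at 24 h, so cocaine at 7 d was below the highest saline pool. Cocaine had 77.8 at 2 h and 54.1 at 24 h, both above every saline pool. Fos, the AP-1 subunit used as a marker of recent neuronal activity, was at 1.59 in saline and 4.66 in cocaine at 7 d, a 2.93-fold higher value. Here cocaine was above the saline pools of 2 h (2.02) and 24 h (3.95) as well, by a small margin over the latter. Cocaine had 14.3 at 2 h and 9.24 at 24 h.

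**Figure D1:**
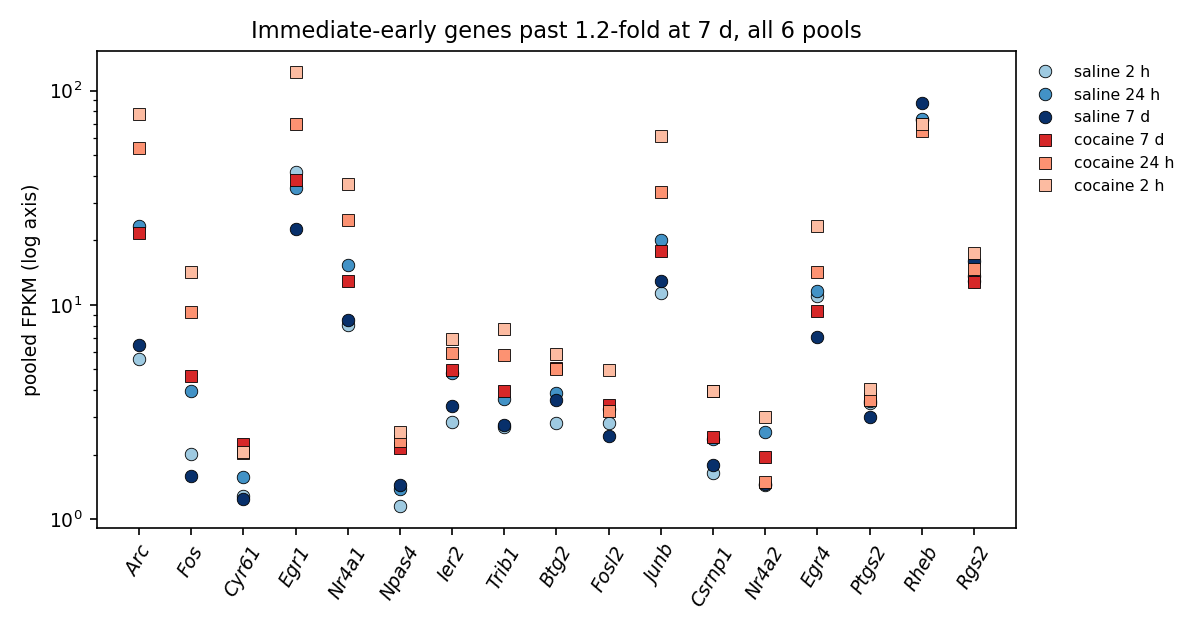
Pooled FPKM (log axis) of the 17 immediate-early genes that differed by 1.2-fold or more at 7 d, ordered by their ratio, with 1 point for each of the 6 pools (circles saline, squares cocaine). The 7 d cocaine pool of Arc (21.6) sits beside the 24 h saline pool (23.2), and that of Fos (4.66) just above it (3.95).

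Other inducible transcription factors showed both patterns. Egr1, a zinc finger factor, was at 22.6 in saline and 38.4 in cocaine at 7 d, while saline was at 41.9 at 2 h and 35.1 at 24 h. The low value was therefore that of the 7 d saline pool, and cocaine lay between the earlier saline pools. Nr4a1, an orphan nuclear receptor, was at 8.47 and 12.9, within the earlier saline values of 8.05 and 15.4. Junb, a partner of Fos in AP-1, was at 12.9 and 17.9, against 11.4 and 20.2 in saline at 2 h and 24 h. Egr4 (7.09 and 9.41) was below both earlier saline pools (11.1 and 11.6) in either group at 7 d. By contrast, Npas4, which neurons induce on calcium entry, was at 1.44 in saline and 2.15 in cocaine, above 1.15 and 1.38 in the earlier saline pools. Fosl2, Ier2, Btg2, Trib1, Csrnp1, Cyr61 and Ptgs2 likewise had their 7 d cocaine value above all 3 saline pools. Of these, Btg2, an antiproliferative factor, was at 3.59 in saline and 5.05 in cocaine, and it was among the genes at least 1.2-fold above each saline pool (2.81 at 2 h and 3.87 at 24 h). Cyr61, a matricellular protein, was at 1.24 and 2.25, with 1.28 and 1.58 in the earlier saline pools.

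The lower members were Rheb, the GTPase that activates mTOR, and Rgs2, which shortens G protein signaling. Rheb was at 87.0 in saline and 69.9 in cocaine at 7 d, with 73.1 and 73.3 in saline at 2 h and 24 h. Rgs2 was at 15.9 and 12.7, with 13.7 and 12.9. For both genes cocaine was just below the lowest saline pool, and saline at 7 d was the highest. Jun (12.8 in both groups), Homer1 (33.4 and 32.6), Fosb (1.5 and 1.61) and Bdnf (8.01 and 6.84) did not reach 1.2-fold.

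The promoters of 5 of these genes are shown because CREB binds the sequence TGACGTCA (the CRE) or its half-site TGACG, which lies within it. The first 3 are those of Rheb, Junb and Rgs2, which with Arc (no entry in the table used) had the highest mean FPKM of the immediate-early genes past 1.2-fold other than Egr1. Fos and Nr4a1 were added after their values were seen. Each run gives the 250 bases before the RefSeq transcription start in GRCm38.p6, 5′ to 3′ along the gene, with half-sites on either strand (read as CGTCA on the opposite strand) and the TATA box TATAAA in capitals.
Rheb, chr5:24842362-24842611, minus strand: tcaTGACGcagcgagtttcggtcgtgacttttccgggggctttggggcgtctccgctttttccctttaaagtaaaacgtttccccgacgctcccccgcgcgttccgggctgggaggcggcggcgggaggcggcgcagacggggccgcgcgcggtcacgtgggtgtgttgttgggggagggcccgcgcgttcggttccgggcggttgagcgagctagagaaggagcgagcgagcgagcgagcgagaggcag
Junb, chr8:84978749-84978998, minus strand: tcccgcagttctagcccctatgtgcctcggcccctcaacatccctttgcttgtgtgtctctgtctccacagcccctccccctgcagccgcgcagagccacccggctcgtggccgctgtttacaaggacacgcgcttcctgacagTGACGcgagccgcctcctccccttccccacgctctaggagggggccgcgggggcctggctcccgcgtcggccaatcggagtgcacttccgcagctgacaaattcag
Rgs2, chr1:144004150-144004399, minus strand: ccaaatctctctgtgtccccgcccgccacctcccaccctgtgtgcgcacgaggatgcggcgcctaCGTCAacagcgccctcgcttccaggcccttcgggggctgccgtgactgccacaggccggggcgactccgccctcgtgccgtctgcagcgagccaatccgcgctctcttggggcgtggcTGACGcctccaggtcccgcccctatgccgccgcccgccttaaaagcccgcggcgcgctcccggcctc
Fos, chr12:85473640-85473889, plus strand: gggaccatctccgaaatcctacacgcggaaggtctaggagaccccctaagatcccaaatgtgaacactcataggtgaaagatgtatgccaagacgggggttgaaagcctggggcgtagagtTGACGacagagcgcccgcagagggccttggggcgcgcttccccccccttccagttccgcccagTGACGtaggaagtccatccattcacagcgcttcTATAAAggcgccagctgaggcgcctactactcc
Nr4a1, chr15:101266596-101266845, plus strand: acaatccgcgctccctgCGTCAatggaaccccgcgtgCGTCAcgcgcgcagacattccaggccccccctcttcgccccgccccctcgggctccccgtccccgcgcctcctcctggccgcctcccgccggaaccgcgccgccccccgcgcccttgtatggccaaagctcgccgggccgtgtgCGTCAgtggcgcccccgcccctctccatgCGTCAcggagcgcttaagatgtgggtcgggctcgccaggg
The half-site was in 26 of the 35 immediate-early genes with an entry and in 17.8% of all 32851 windows of the same length. It was also in 13 of 33 complex I genes and in 27 of 59 genes of the cytosolic ribosome. Nr4a1 held it at 4 places, Fos and Rgs2 at 2 and Rheb and Junb at 1, so it was present in genes with higher and with lower values at 7 d. The full CRE was in 4 of the 35 genes (Maff, Btg2, Plk2 and Arl4d), in 3 of the 33 complex I genes, in 6 of the 59 ribosomal genes and in 1.55% of all windows. A CArG box, the core of the serum response element, was in 2 of the 35 immediate-early genes (Egr2 and Srf), and 1.47% of all windows held one. The matches describe the letters of these windows, not binding.

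Feedback inhibitors of MAP kinases were also on the higher side in cocaine. Of 16 members 8 were higher by 1.2-fold (background 8.46%) and 1 was lower, with a median log2 ratio of 0.20, or 0.10 with a mean FPKM of at least 5. For 7 of the 8, cocaine at 7 d lay within the range of the saline pools. Dusp1, a nuclear phosphatase for p38, JNK and ERK, was at 6.14 in saline and 10.3 in cocaine, against 5.85 and 11.9 in saline at 2 h and 24 h. Dusp5 (1.08 and 1.67) and Dusp6 (13.8 and 17.6), phosphatases of ERK, had earlier saline values of 1.78 and 1.93 for Dusp5 and of 14.1 and 18.4 for Dusp6. In both genes the 7 d saline pool was the lowest of the saline pools. Dusp10 alone was above them all, at 2.03 in saline and 2.50 in cocaine with 1.95 and 2.01 earlier. Spry3, a Sprouty inhibitor, was at 1.59 in saline and 1.18 in cocaine.

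Many subunits of mitochondrial complexes, ribosomes and the proteasome were lower in cocaine. Complex I, the NADH dehydrogenase that takes in electrons, had 20 of 37 members lower by 1.2-fold and 0 higher, with a median log2 ratio of -0.29, where 11.8% of all genes were lower. Complexes II to V, which pass the electrons to oxygen and make ATP, had 19 of 41 lower, 0 higher and a median of -0.25. Cytosolic ribosomal proteins had 36 of 79 lower and a median of -0.25. Mitochondrial ribosomal proteins had 29 of 77 lower and a median of -0.21, and proteasome subunits 13 of 34 and -0.22. In the proteasome, 10 of 14 genes of the proteolytic core and 3 of 20 of the regulatory cap were lower, a contrast that was lost once the ratios were corrected for transcript length.

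A part of these genes lay below the earlier saline pools as well. It was 8 of the 20 lower genes of complex I, 8 of 19 of complexes II to V, 10 of 36 of the cytosolic ribosome, 16 of 29 of the mitochondrial ribosome and 9 of 13 of the proteasome, while 51.9% of all lower genes lay below the 3 saline pools. Complex I, complexes II to V and the cytosolic ribosome were under that share. As a share of all their genes with 3 saline values the counts were 8 of 36, 8 of 40, 10 of 78, 16 of 74 and 9 of 34, against a background of 6.05%. The summed FPKM of 36 complex I genes found in all tables was 4324 in saline at 2 h, 4394 in saline at 24 h and 5398 in saline at 7 d, but 4417 in cocaine at 7 d. In cocaine at 2 h and 24 h it was 4338 and 4325. The 7 d saline pool was thus the only one of the 6 outside 4324 to 4417. Cytosolic ribosomal proteins summed to 21037, 22592 and 26415 in saline at 2 h, 24 h and 7 d, and to 22194 in cocaine at 7 d. Complexes II to V summed to 10049, 10517 and 12403 in saline, and to 10339 in cocaine at 7 d. The proteasome differed, with sums of 2024, 2001 and 2248 in saline and the lowest sum of the 6 pools, 1950, in cocaine at 7 d. Saline at 7 d was the highest of the 3 saline pools for 29 of 36 complex I genes, 37 of 40 genes of complexes II to V, 73 of 78 ribosomal protein genes and 25 of 34 proteasome genes, against 35.6% of all 12892 genes with 3 saline values.

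Single subunits showed the same. Uqcrq, a small subunit of complex III, was at 302 in saline and 202 in cocaine at 7 d, with 205 and 219 in saline at 2 h and 24 h. Ndufb5, an accessory subunit of complex I, was at 171 and 120, with 132 and 125. Cox7a2 of complex IV was at 307 and 217, with 222 and 206. Rps27, of the small ribosomal subunit, was at 650 and 410, with 462 and 391 in the earlier saline pools. In all 4 genes the 7 d saline pool was the highest value of the 6 pools. Rpl35 differed from them, since its 7 d cocaine value of 111 was over 1.2-fold below each saline pool (135, 135 and 152 at 2 h, 24 h and 7 d). Of 8 genes encoded by mitochondrial DNA, 2 were lower (background 11.8%). Mt-Nd3 was at 8636 in saline and 6443 in cocaine at 7 d, and at 6209 and 6651 in the earlier saline pools.

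Genes of the citrate cycle and of glycolysis, with longer transcripts, differed less. The citrate cycle had 2 of 21 members lower (Mdh1 and Dld), below the background of 11.8%, and a median log2 ratio of -0.01. Glycolysis had 0 of 15 past 1.2-fold in either direction and a median of -0.08. The median transcript length was 983 bases for complex I and 932.5 for cytosolic ribosomal proteins, and 2636 and 2221 for these 2 lists. The vacuolar ATPase, with a median length of 2189 bases, had 4 of 17 genes lower (background 11.8%). Its median log2 ratio was -0.15, and -0.12 once the ratios were corrected for transcript length.

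**Figure D2:**
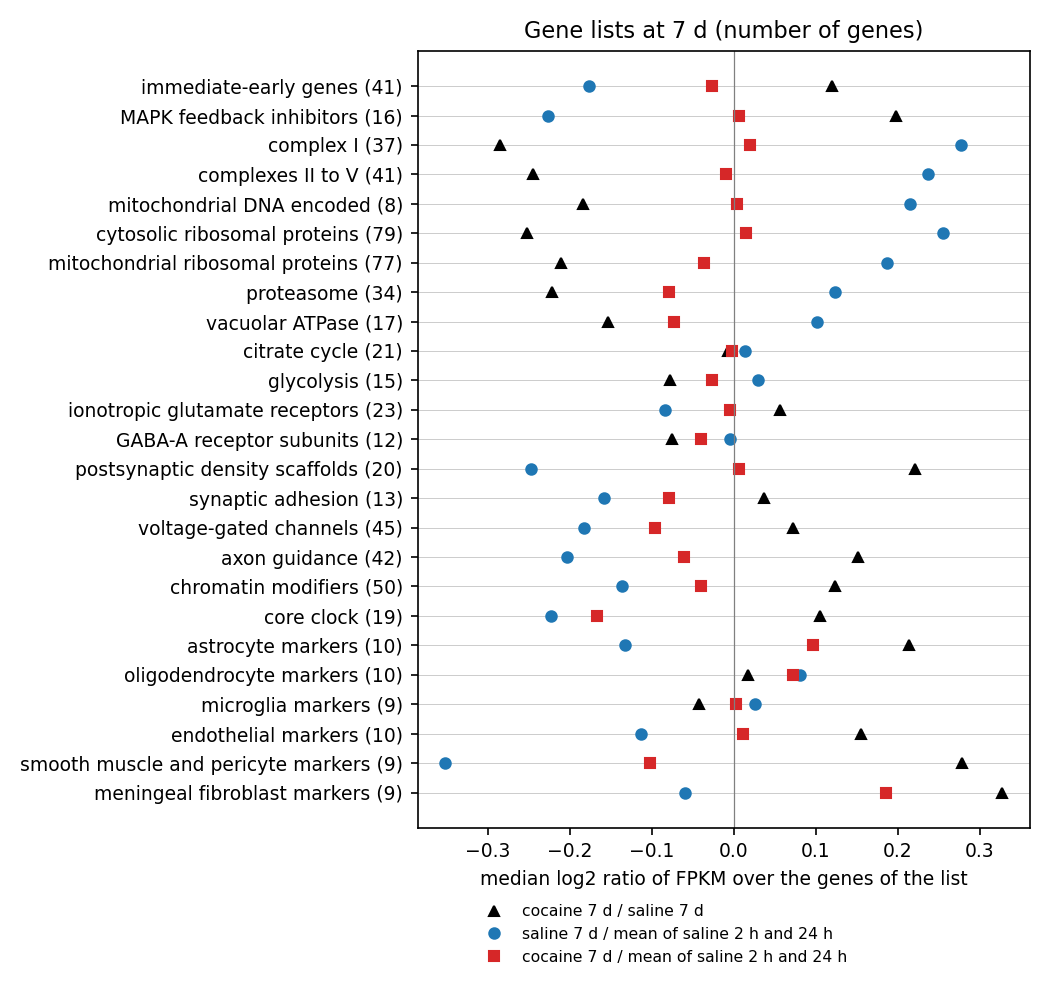
Median log2 FPKM ratio of 25 gene lists at 7 d, with the number of genes in brackets. Triangles give cocaine over saline at 7 d, circles saline at 7 d over the geometric mean of the saline pools of 2 h and 24 h, and squares cocaine at 7 d over the same mean. Complex I has 0.28 for saline and 0.02 for cocaine against the earlier saline pools, and postsynaptic scaffolds -0.25 and 0.01.

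Transcript length went with the ratio across all genes. Over 12685 genes with a length (the longest annotated transcript of the gene name), Spearman's rho of the log2 ratio with length was 0.42 at 7 d, against 0.15 at 2 h and 0.09 at 24 h, where the saline and cocaine pools came from their own tables. Genes within a pool share its libraries and depth, so these are descriptions across genes without a test. The relation was weaker at low expression, with 0.29 in the lowest and 0.54 in the highest of the 4 groups by mean FPKM. It held for coding length (0.39) and for the 3′ untranslated length (0.33), and was lower for the locus span with introns (0.19) and for GC content (0.14).

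In 10 groups of genes of rising length, the median log2 ratio of cocaine over saline went from -0.19 to 0.13. In the group up to 1044 bases 37.0% of genes were lower and 9.04% higher by 1.2-fold, and in the group from 6291 bases 1.53% were lower and 19.9% higher. The same groups were then set against the geometric mean of the saline pools of 2 h and 24 h. For saline at 7 d the medians fell steadily from 0.19 to -0.17, and for cocaine at 7 d they stayed between -0.01 and -0.04. Spearman's rho with length was -0.45 for saline at 7 d and -0.06 for cocaine at 7 d, and -0.01 for saline at 24 h over saline at 2 h. Against the earlier saline pools, the relation with length was thus seen in the 7 d saline pool and hardly in the 7 d cocaine pool. The 2 pools of 7 d come from 1 table with 1 normalization, while the earlier pools were normalised separately. The source of the relation was not tested.

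**Figure D3:**
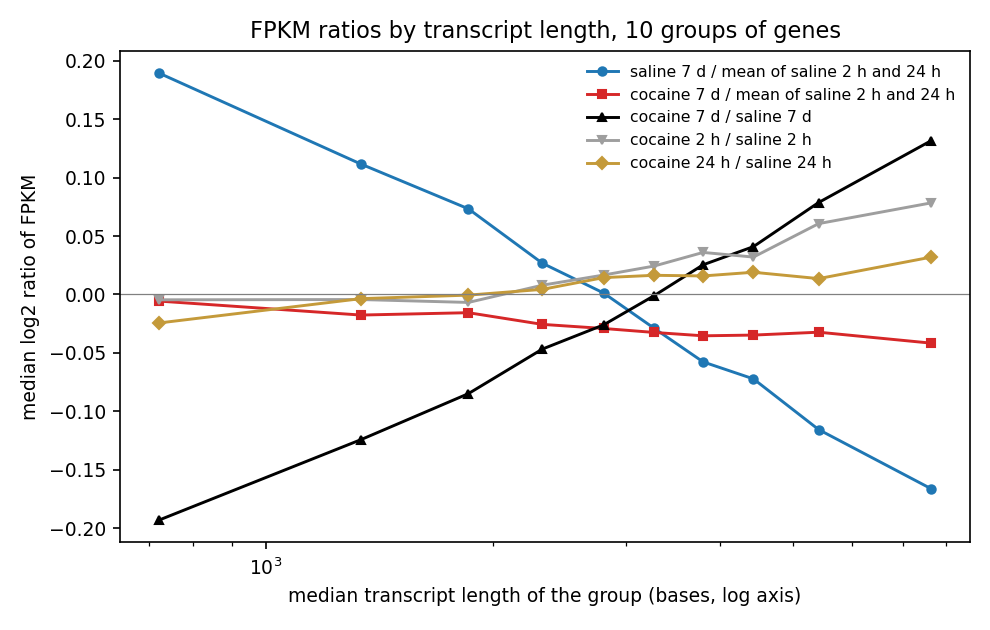
Median log2 FPKM ratio in 10 groups of about 1239 genes ordered by transcript length (log axis). Saline at 7 d over the mean of the earlier saline pools falls from 0.19 to -0.17, cocaine at 7 d over the same mean stays near 0, and cocaine over saline at 7 d rises from -0.19 to 0.13.

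The same was seen gene by gene. Saline at 7 d differed from the mean of the earlier saline pools by 1.2-fold or more for 21.6% of genes (10.9% higher, 10.7% lower), and cocaine at 7 d for 10.8% (5.1% higher, 5.67% lower). Of the 1064 genes called higher in cocaine that had all values, saline at 7 d was farther than cocaine at 7 d from the earlier saline mean in 71.3%, and of the 1479 called lower in 73.5%. Over all 12819 genes the share was 65%. The genes called higher had a median log2 value of -0.29 in saline and 0.08 in cocaine against that mean, and the genes called lower 0.28 and -0.09. The choice of these genes by the 7 d ratio fixes that the 2 medians differ, not which of them is nearer 0.

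**Figure D4:**
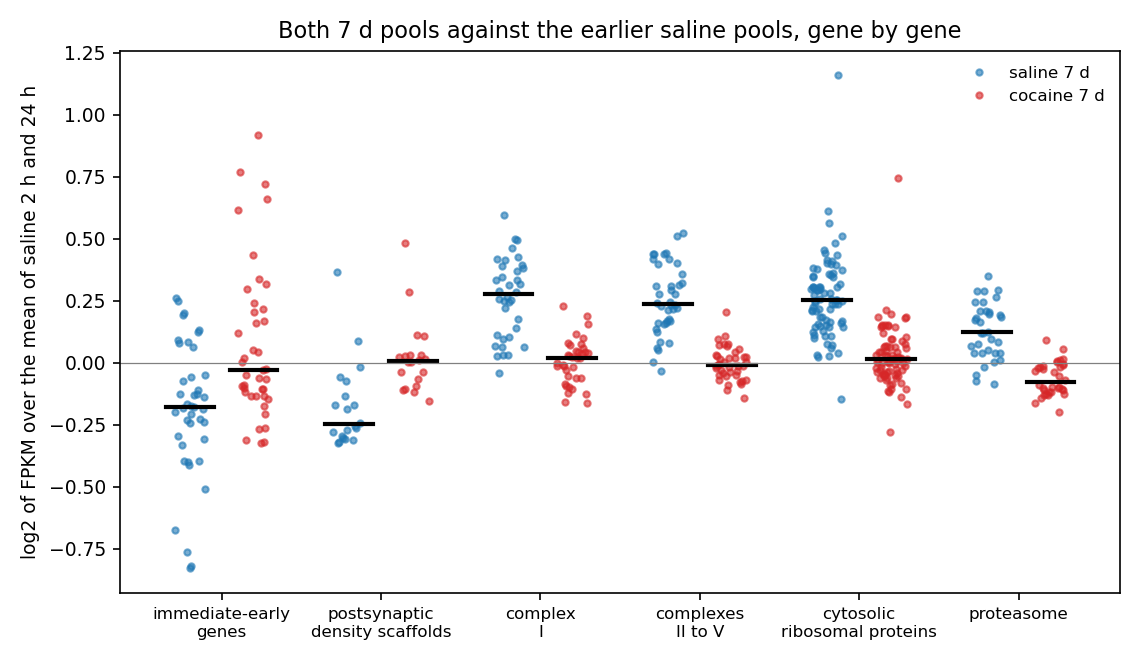
Log2 FPKM of each gene over the geometric mean of the saline pools of 2 h and 24 h, for saline at 7 d (blue) and cocaine at 7 d (red) in 6 gene lists, with the median as a bar. Most genes of complex I and of the cytosolic ribosome lie above 0 in saline at 7 d (medians 0.28 and 0.26) and around 0 in cocaine at 7 d (0.02 and 0.01).

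After the median log2 ratio of genes of like length was subtracted, 979 genes were higher (7.72%) and 832 lower (6.56%) by 1.2-fold. Of the immediate-early genes 16 of 41 were then higher, and the median was 0.18. Of complex I genes 7 of 37 were lower and the median was -0.14, and of cytosolic ribosomal proteins 6 lower and -0.10. Mitochondrial ribosomal proteins had 11 of 77 lower and complexes II to V 8 of 41. No proteasome gene was lower any more, in the core or in the cap, with medians of -0.13 and -0.09, and 0 of 8 genes of mitochondrial DNA were. The medians of complexes I to V, of both ribosomes and of the proteasome kept their sign, while those of mitochondrial DNA, the citrate cycle and glycolysis turned to 0.0048, 0.021 and 0.0086. Of the postsynaptic scaffolds described next, 3 of 20 were then higher, with a median of 0.13.

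Some groups of synaptic genes were on the higher side, and others with transcripts as long were not. Postsynaptic density scaffolds, which hold glutamate receptors in place, had 8 of 20 members higher (background 8.46%), 0 lower and a median log2 ratio of 0.22. For 7 of the 8 the 7 d cocaine value lay within the saline range, and saline at 7 d was the lowest saline pool for 16 of the 20 scaffolds, against 39.6% of all genes. Agap2 was at 168 in saline and 213 in cocaine, with 195 and 223 earlier, and Shank3 at 33.4 and 42.4, with 38.0 and 45.9. Shank1, a master scaffold of the spine head, was the exception, at 39.1 in saline and 67.5 in cocaine at 7 d with 42.9 and 54.4 in saline at 2 h and 24 h. Its 7 d cocaine value was also above cocaine at 2 h (53.0) and 24 h (49.2).

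Among 23 ionotropic glutamate receptor genes 3 were higher (background 8.46%), all of them subunits of the NMDA receptor, whose 6 members had a median log2 ratio of 0.22. Grin2a, a subunit of mature synapses, was at 5.49 in saline and 7.48 in cocaine, more than 1.2-fold above each saline pool (5.38 and 6.01 earlier) and above cocaine at 2 h (6.21) and 24 h (5.98). Grin2b, the subunit that dominates early in life, was at 10.2 and 14.2, and its cocaine value lay within the earlier saline values of 13.3 and 14.4. Grin2c was at 8.85 and 10.7, against 10.4 and 12.6. The obligatory subunit Grin1 (90.5 and 100.3) and the 10 genes of AMPA receptors and the 7 of kainate receptors did not reach 1.2-fold. Of 12 GABA-A receptor subunits and 13 synaptic adhesion genes 0 reached it, and of 45 voltage-gated channel genes 3 were higher, a share below the background of 8.46%.

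In calcium and cyclic AMP signaling 3 of 29 members were higher and 1 lower, near the background of 8.46% higher and below that of 11.8% lower. Adcy1, a calcium-stimulated adenylyl cyclase, was at 50.7 in saline and 63.4 in cocaine, above 52.7 and 59.7 in the earlier saline pools. Camk2a, the abundant kinase of potentiation, was at 844 and 999, within 895 and 1048, and did not reach 1.2-fold. Axon guidance genes had 6 of 42 higher (background 8.46%) and 0 lower, with a median log2 ratio of 0.15. With the length trend subtracted 5 were higher and 1 was lower, and the median was 0.06. Ntn1 (netrin 1) was at 1.33 and 1.95, just above 1.56 and 1.90, while Plxnb1, a semaphorin receptor, was at 6.99 and 9.66, below both earlier saline pools (10.4 and 12.6). Chromatin modifiers had 7 of 50 higher against the same background, and 2 of 50 with the length trend subtracted, led by the H3K4 demethylase Kdm5a at 3.56 and 5.11, above 3.49 and 4.26. Hdac4, a histone deacetylase that shuttles with activity, was at 3.64 and 4.73, with 4.73 and 4.66 earlier, so that saline at 7 d was the low value. Kdm6b (0.93 and 1.1), Wnt4 (4.01 and 4.59), Wnt7b (13.0 in both groups) and Prkcb (111 and 113) did not reach 1.2-fold. Notch2 was at 1.77 and 2.37, above each saline pool by 1.2-fold (1.23 and 1.64 earlier), and Notch1 at 1.91 and 2.34, below 2.61 and 2.96.

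Markers of other cells moved as well, and their part in the values above was not tested. Against a background of 8.46% higher, 5 of 10 astrocyte markers were higher and 0 lower, and 3 of these (Slc1a2, Fgfr3 and Gjb6) were above all saline pools by a small margin. Slc1a2, the glial glutamate transporter, was at 219 in saline and 286 in cocaine, with 235 and 276 earlier. The summed FPKM of 9 astrocyte markers was 698, 801 and 693 in saline at 2 h, 24 h and 7 d and 802 in cocaine at 7 d. Of 9 smooth muscle and pericyte markers 5 were higher against the same background, with 8 of 9 lowest in the 7 d saline pool of the saline pools. Their sums were 121, 124 and 105 in saline and 116 in cocaine at 7 d. Of 9 meningeal fibroblast markers 6 were higher, with sums of 79.8, 99.1 and 81.4 in saline and 98.1 in cocaine at 7 d, near the 24 h saline pool. Col3a1, a fibrillar collagen, was at 1.13 and 1.68, with 1.11 and 1.24 earlier. Of 5 red blood cell genes 3 were likewise higher, with sums of 323, 458 and 452 in saline and 529 in cocaine at 7 d.

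Sums of neuronal identity genes were close in both groups, though single genes differed. The 8 excitatory neuron markers summed to 3100 in saline and 3207 in cocaine at 7 d, and 17 genes of cortical layers to 507 and 488. Nrgn (1694 and 1637) and Camk2a (844 and 999) made up most of the first sum, so it says little about the other markers. Lmo4 (253 and 228) made up a large part of the second, which has the same limit. Of the 17 layer genes (of 20 listed) 3 were higher and 3 lower, and of 19 interneuron genes 1 was higher and 3 were lower, with 8.46% and 11.8% of all genes as background. Neurod6 was at 37.2 in saline and 28.1 in cocaine, below 39.2 and 30.6 earlier, and Fezf2, of deep layer projection neurons, at 7.18 and 5.44, below 6.92 and 6.10. Tac1, which encodes substance P, was at 15.1 and 9.79, but cocaine lay within the earlier saline values of 10.5 and 9.14. The dopamine receptor genes Drd1, Drd2 and Drd3 had no row with status OK, and Drd4 and Drd5 fell under the FPKM minimum. Striatal markers were mixed, with 1 of 6 higher and 2 lower. Of 10 oligodendrocyte markers 1 was lower, and of 9 microglial markers 1 was higher, near the shares of all genes (11.8% and 8.46%).

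Beyond the lists, 133 genes in cocaine at 7 d were at least 1.2-fold above each of the 3 saline pools and 154 at least 1.2-fold below each, and 23 and 13 of these were small RNA genes or transcripts under 300 bases. Ranked by the ratio after 1 FPKM was added to both pools, the first 10 in each direction among genes outside the saline range were all of this small kind by locus or annotation, except that the locus of Gm22625 was long, and several were listed at 0. Rny3, a Y RNA, was listed at 0 in saline at 2 h, 24 h and 7 d, and at 714 in cocaine at 7 d. Cocaine was also at 750 at 2 h and 260 at 24 h. Mir320 was listed at 0 in saline at 2 h and 7 d and at 235322 in saline at 24 h, on a locus of 82 bases (chr14:70443510-70443591). In cocaine Mir320 was listed at 3.18e+06 at 2 h, 1.17e+06 at 24 h and 1.15e+06 at 7 d. Poly(A) selection and the length term of FPKM make such values hard to read, so no fold is given.

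Among transcripts of at least 300 bases, the largest higher values included single genes with uneven saline pools. Auts2, a nuclear protein tied to neurodevelopment (chr5:131437331-132543344), was at 7.78 in saline and 41.4 in cocaine at 7 d, 5.33-fold higher, but saline was at 15.4 at 2 h and 35.1 at 24 h. Malat1, a nuclear long noncoding RNA (chr19:5795690-5802672), was at 12.3 and 37.0, 3.01-fold higher, with 15.5 and 18.5 in the earlier saline pools and 13.6 and 20.3 in cocaine at 2 h and 24 h. Cdr1, whose locus also gives a circular RNA that this measure cannot separate, was at 5.26 and 14.4, with 8.48 and 4.59 earlier. For Malat1 and Cdr1 the 7 d cocaine pool was the highest of all 6 pools. Ttr, a choroid plexus gene, was at 0.28 in saline and 6.54 in cocaine at 7 d, and at 1.90 and 1.80 in the earlier saline pools. It was the only member among 9 choroid plexus markers. Folr1 and Kl fell under the FPKM minimum, and the other 6 had no row with status OK.

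Lower genes of this kind included some that were high in the 7 d saline pool alone. Ighm, the heavy chain of IgM (chr12:113418564-113430445), was at 6889 in saline and 11.5 in cocaine at 7 d, and between 7.52 and 10.3 in the other 4 pools. Igkc, the kappa light chain, was at 2.65 and 1.5, with 1.60 and 1.78 in the earlier saline pools, and the B cell markers Cd79b, Ms4a1 and Jchain had no row with status OK. Med23, a subunit of the Mediator complex, was at 10.6 in saline and 4.46 in cocaine, with 4.88 and 4.55 earlier. Lrrc17 was at 4.98 and 1.01, with 1.74 and 2.03. Its saline value was thus high, and its cocaine value was also over 1.2-fold below each saline pool. In other genes cocaine was low and saline at 7 d was within or below the earlier saline values. Uap1l1 was at 8.78 in saline and 5.20 in cocaine, with 8.30 and 8.95 earlier. Baz2b, a bromodomain protein, was at 4.69 and 2.90, with 5.82 and 5.18, and Htr2c, the serotonin 2C receptor, at 3.68 and 2.89, with 3.80 and 3.54. In these 3 genes the 7 d cocaine value was over 1.2-fold below each saline pool.

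**Figure D5:**
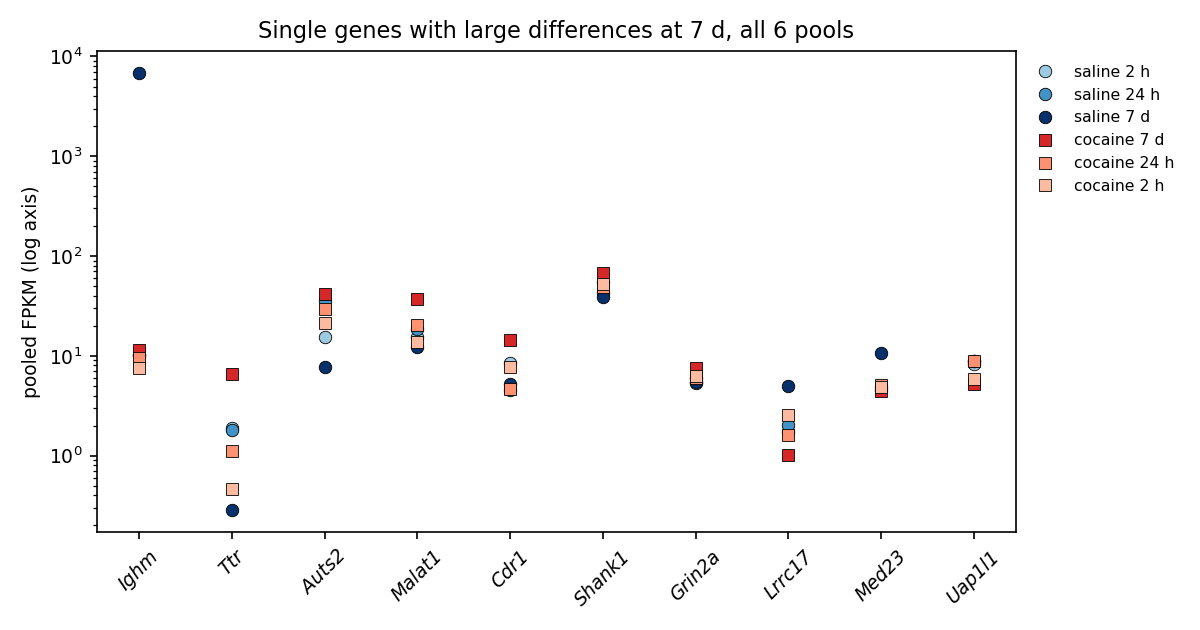
Pooled FPKM (log axis) of 10 single genes in the 6 pools (circles saline, squares cocaine). Ighm is at 6889 in saline at 7 d and between 7.52 and 11.5 elsewhere, while Shank1, Grin2a, Malat1 and Cdr1 have their highest value in cocaine at 7 d.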

How the data were processed

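Polyadenylated RNA of prefrontal cortex was sequenced on an Illumina HiSeq instrument. The authors deposited 1 Cuffdiff table per time point, with 1 FPKM for saline and 1 for cocaine per locus, pooled over 2 libraries. The submitters' processing notes name Trimmomatic 0.32, TopHat2 2.0.12 and Cufflinks 2.2.1 and the build GRCm38, and the loci are on that build. The tables also hold the authors' own fold changes, test statistics, p and q values, which were not used. FPKM carries no depth, so the counting error behind each value is unknown from these tables.

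From 41667 loci at 7 d, 16769 had the status OK and 15446 of them a gene name. Where a name had several rows, the longest locus was kept, and rows were matched across tables by name. Of 12892 genes with 3 saline values, 902 had locus spans that differed by over 1.1-fold between tables. Ratios were taken without a pseudocount unless stated, and 1.2-fold was the size called. Lengths were those of the longest GENCODE transcript of the name (95.4% of members), and the length trend was the median in 20 groups of genes. Named genes were the 10 largest ratios each way outside the saline range (ranked with a pseudocount of 1 FPKM), per list the 2 with the highest mean FPKM and the 3 with the largest ratio, and genes the study names. Others (the genes of at least 300 bases, Baz2b, Htr2c, and most list members in the text) were chosen after their values were seen. The members and lists were chosen with earlier results of these data known. The steps were also run on simulated data, with planted changes well above 1.2-fold. That run does not bear on how well differences near 1.2-fold are called. Python 3.11.15, pandas 2.3.3, numpy 2.4.6 and scipy 1.17.1 were used.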

Additional observations from a re-analysis of the deposited data

How the results depend on the processing

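No paired analysis was possible because the tables hold 1 value per group and none per library, although the labels give both groups replicates 1 and 2. For the same reason no replicate could be left out. The 4 counts moved with the size called, the filter, the pseudocount and the length trend. At 1.5-fold they were 153 higher and 224 lower, of which 89 and 101 lay outside the saline range. With a mean FPKM of at least 5, which leaves fewer genes, they were 382 and 933, and 140 and 454. Without a minimum FPKM, in a larger set of genes, 1680 were higher. These are counts and not shares of the genes left by each filter. With a pseudocount of 1 FPKM 649 were higher, 285 of them above the saline pools. With the length trend subtracted 832 were lower, 482 of them below the saline pools. Centring, other choices of row or locus, scaling across tables and use of the saline pools of 24 h and 7 d alone kept the counts within 1.5 times, as did leaving out small RNAs and loci of unequal span, both chosen after the data were seen. The correlation with length fell to 0.19 with the locus span. Of 34 list medians 9 changed sign once the length trend was subtracted: mitochondrial DNA (0.0048), citrate cycle (0.021), glycolysis (0.0086), metabotropic glutamate receptors (-0.066), synaptic adhesion (-0.013), dopamine signaling (0.013), interneuron genes (0.0040), cortical layers (-0.019) and microglia (0.11). Centring turned the citrate cycle to 0.0040, and a mean FPKM of at least 5 turned excitatory neuron markers to -0.0052 and striatal markers to 0.084. Of 120 named genes past 1.2-fold, 0 changed sign with the pseudocount or centring, and 0 of 115 with the length trend subtracted. This outcome was fixed and shows nothing about the genes. A pseudocount cannot change the sign of a ratio, and the other 2 shifts were smaller than 1.2-fold. An alternative added later set cocaine over the geometric mean of the 3 saline pools. Of 116 named genes with that value, Notch1 (-0.068), Per2 (-0.17) and Plxnb1 (-0.0077) changed sign. The cause was not tested.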
